A study of Mus musculus with 6 samples.

Results

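Genes of the lysosome and of autophagy were compared between mouse embryonic stem cells (mESCs) and the cardiac precursor cell cultures (CPCCs) grown from them, in bulk RNA-seq. The genes were taken by symbol alone, and the symbols were chosen with earlier results of these data known: the cathepsins (*Cts* and 1 letter), the lysosome-associated membrane proteins (*Lamp* and 1 digit), the subunits of the vacuolar proton pump (*Atp6v* and *Atp6ap*), the *Atg* genes, and *Tfeb*, *Tfe3*, *Mitf*, *Sqstm1*, *Gabarap*, *Map1lc3a* and *Map1lc3b*. These are 62 of the 16279 genes in either count table. Both tables list 57 of them, the mESC table alone lists *Atp6v1c2* and *Ctsg*, and the CPCC table alone lists *Atp6v0a4*, *Ctsk* and *Ctss*.

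All 6 libraries came from male F1 cells of a C57BL/6 x CAST/EiJ cross. The 3 mESC libraries, S01, S02 and S03, were from cells kept without feeders in 2i medium, which holds serum, LIF and inhibitors of MEK and GSK3. The 3 CPCC libraries, S04, S05 and S06, were from cultures that the study made from the same mESC clones by hanging drops and embryoid bodies with ascorbic acid, and then enriched by repeated passage in medium with serum, EGF and FGF2. The study describes the CPCCs as mixed cultures, so in these bulk samples a change in the share of a cell type and a change in RNA per cell cannot be told apart, and cell type, medium and passage are confounded. The study used 3 clones, but the columns of the tables do not say which clone a library came from.

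Lysosomes are acidic organelles in which cathepsins and other hydrolases break down material delivered by endocytosis and by autophagy. The vacuolar proton pump acidifies them: its membrane sector, V0, conducts protons, and its cytosolic sector, V1, hydrolyses ATP. In autophagy, Atg proteins build a double membrane around cytoplasm, attach LC3 and GABARAP proteins to it and deliver it to the lysosome, and the transcription factors Tfeb, Tfe3 and Mitf bind the promoters of many of these genes at a motif known as the CLEAR element.

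Library totals lay between 6442639 and 6907330 counts in mESCs and between 8468819 and 11436062 in CPCCs, and levels are given as CPM, normalised counts per 1000000. In 1 library, 3 counts equal 0.298 to 0.463 CPM, which was taken as the floor of detection and covers counting error only. All 8 mESC markers were lower in CPCCs (the quasi-likelihood test of edgeR with adjustment after Benjamini-Hochberg), and the summed level of the 9 mesenchyme or fibroblast markers averaged 13.9 CPM in mESCs against 12233 CPM in CPCCs. Of the 9 cardiac progenitor and muscle markers, 4 were in both tables and 1 of them, *Tnnt2*, rose. *Mef2c*, *Myh6*, *Hand2* and *Nkx2-5* are listed for CPCCs only, with means of 14.02, 11.9, 3.27 and 0.836 CPM, and *Tbx5* for mESCs only, with 0.555 CPM. The summed level of the 9 was 10.7, 17.4 and 15.1 CPM in mESCs against 166, 48.3 and 66.6 CPM in CPCCs, with S04 the highest. Of the 10 macrophage markers, the CPCC table lists 10, whereas *Cd68* alone is listed for mESCs. Their summed level was 341, 96.5 and 46.1 CPM for S04, S05 and S06 against 15.3, 11.5 and 10.97 CPM in S01, S02 and S03, and S04 was the highest CPCC library for 10 of the 10.

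Of the 57 members tested, 27 were higher in CPCCs, 9 were lower and 21 were not called by the quasi-likelihood test of edgeR with adjustment after Benjamini-Hochberg, taken at an adjusted p under 0.05. Among all 12471 genes tested, 31.7% were higher and 29.7% were lower. The log2 fold change, CPCC over mESC, had a median of 0.65 over the tested members and 0.03 over all genes tested. In 32 members all CPCC libraries were above all mESC libraries, and in 11 all were below, where 35.3% and 34.5% of all genes tested did so. A change of at least 2-fold was seen in 20 of the 27 and 6 of the 9. By role, the rises were mostly in cathepsins, *Lamp1*, *Lamp2*, V0 subunits and LC3 genes, and the falls were in the autophagy initiation genes *Atg13*, *Atg14* and *Atg101*, in *Atg4d* and *Atg16l1*, in *Tfeb* and *Mitf*, and in *Lamp3* and *Atp6v1b2*, while V1 subunits and the conjugation genes mostly were not called.

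**Figure D1:**
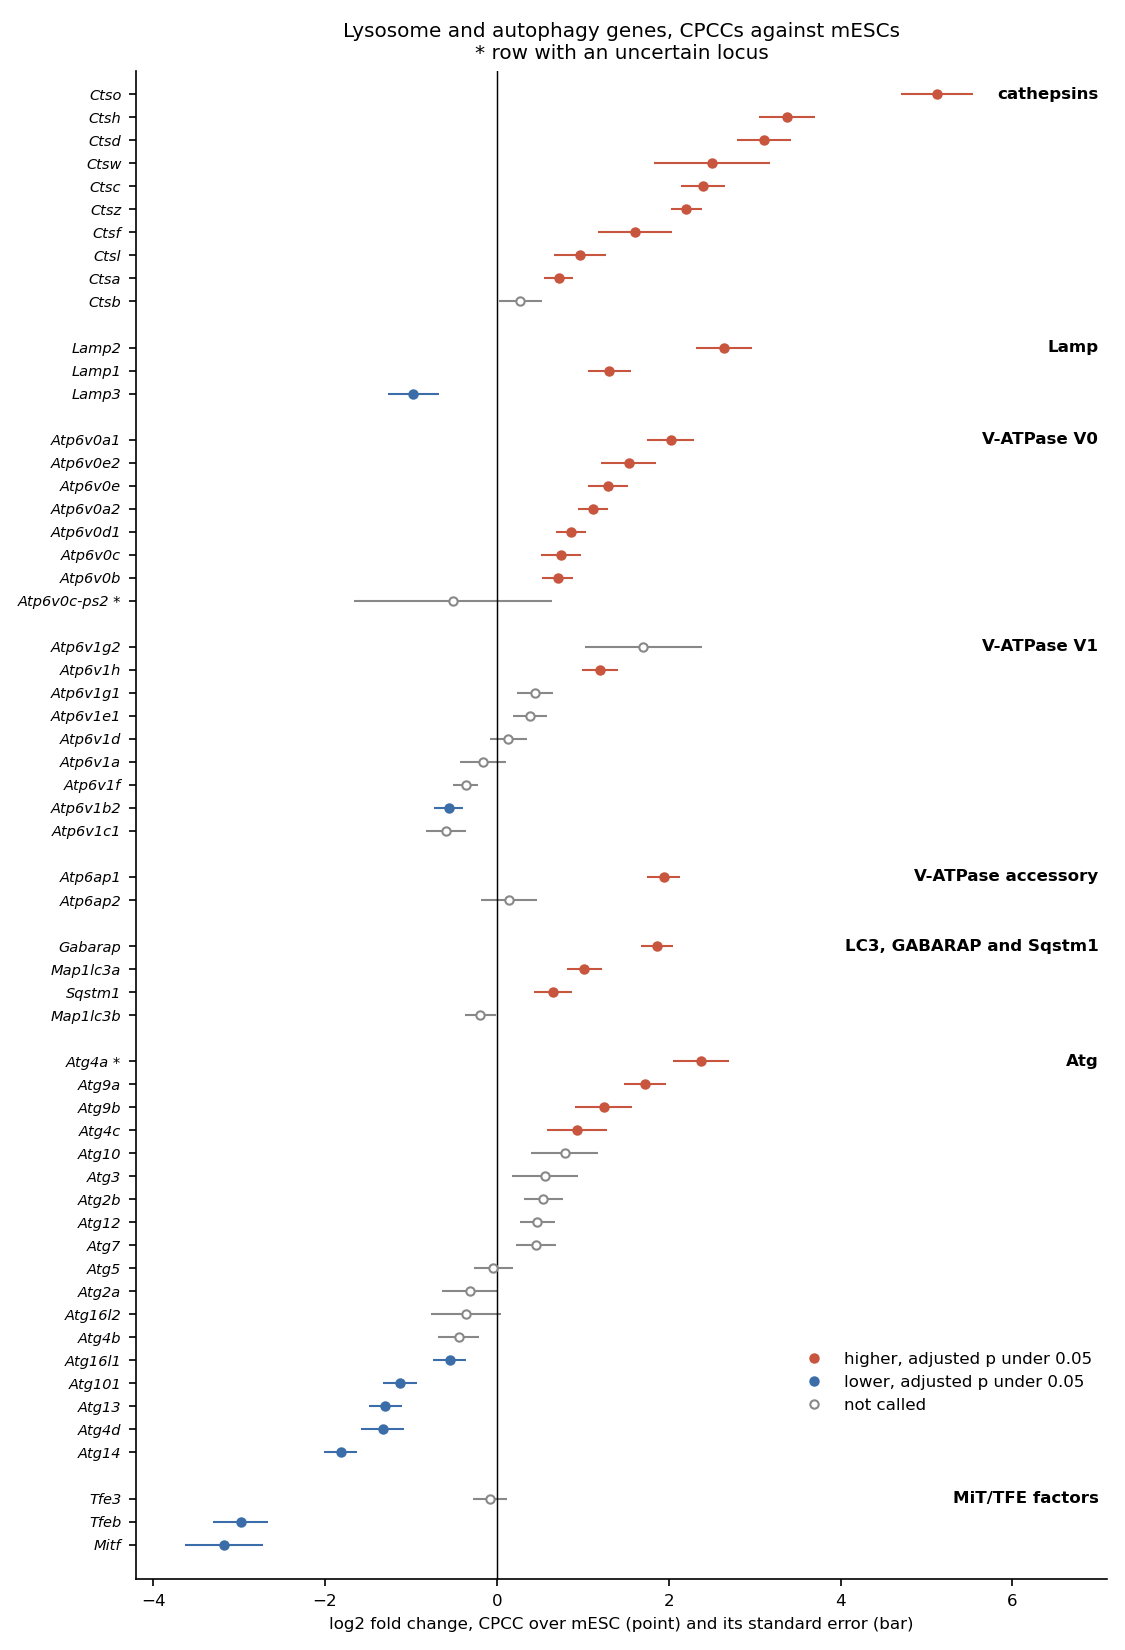
Log2 fold change, CPCC over mESC, of the 57 tested members by role (horizontal axis), with its standard error as a bar; filled red points were higher and filled blue points lower at an adjusted p under 0.05, and open points were not called. Of 10 cathepsins 9 are red, the V0 subunits other than the uncertain row lie right of 0, the V1 subunits straddle 0, and *Tfeb* and *Mitf* lie furthest left.

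A pair of rows could not be taken at their symbol. The row named *Atg4a* lies on chromosome 3, 103643953 to 103646069, where the GENCODE vM21 annotation has the gene copy *Atg4a-ps*, not *Atg4a*, which is on chromosome X. The row named *Atp6v0c-ps2* lies on chromosome 17, 24163865 to 24169396, over *Atp6v0c* itself, and held 1.35, 1.62 and 15.8 CPM in mESCs against 11.1, 1.59 and 0.448 CPM in CPCCs, against 146, 145 and 104 CPM and 286, 208 and 168 CPM for *Atp6v0c*. Without these rows, 26 of 55 members were higher and 9 lower. Of the other 60 members, 19 overlap another annotated gene, 3 of them on the same strand: *Ctsd* with *Gm49369*, *Map1lc3b* with *Gm20388* and *Atp6v0a4* with *D630045J12Rik*. The library kit does not mark strand, so reads of overlapping genes could not be told apart.

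The core of the CLEAR element, TCACGTGA on either strand, was looked for in the 300 bases around each RefSeq transcription start site (250 before, 50 after; build GRCm38.p6). It was in a window of 6 of the 50 members that have a promoter sequence (12%), of 12 of 125 genes of the wider lysosome and autophagy lists described further down (9.6%), of 2.25% of all genes tested that have a sequence, and of 1.12% of all 27025 genes with one. The shorter E-box, CACGTG, which is part of it, was in 13 of the 50 (26%), against 12.002% of all genes tested that have a sequence and 8.09% of all genes with one, and the related M-box, TCACATGA, was in 2, *Atp6v0c* and *Ctss* (4%, against 0.934% and 1.15%). Of the 6 members with the CLEAR core, *Ctsd*, *Ctsa*, *Atp6v0d1* and *Atp6v0e* rose, and *Atp6v1a* and *Atg3* were not called. Of the 12 wider genes with it, *Clcn7*, *Mcoln1* and *Vps33a* rose, *Vps26a* fell and the others were not called. Of all genes tested, 31.7% were higher and 29.7% lower, and a link between the motif and the changes was not tested. Sequences of the 6 members are shown because *Ctsd* gave the highest level among the cathepsins in CPCCs. The motif also stands in subunit genes of both sectors of the proton pump, of which V0 genes rose and *Atp6v1a* was not called. The *Ctsd* window is given up to the start site (chr7:142387828-142388077, minus strand), with the core 99 bases before the start site, and the others as the stretch around the core: *Ctsa* (chr2:164833734-164833802, plus strand), with a core 13 bases before and another 4 after the start, *Atp6v0d1* (chr8:105566035-105566094, minus strand), *Atp6v0e* (chr17:26676372-26676425, plus strand), *Atp6v1a* (chr16:44139358-44139417, minus strand) and *Atg3* (chr16:45158731-45158790, plus strand). Each is printed 5′ to 3′ on the strand of its gene with the CLEAR core in capitals; a match of letters is not a measured binding site.
Ctsd: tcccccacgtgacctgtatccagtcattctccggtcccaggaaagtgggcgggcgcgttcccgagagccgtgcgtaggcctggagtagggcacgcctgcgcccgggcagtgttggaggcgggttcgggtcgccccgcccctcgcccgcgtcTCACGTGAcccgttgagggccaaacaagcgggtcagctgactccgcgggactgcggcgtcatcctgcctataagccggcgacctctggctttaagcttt
Ctsa: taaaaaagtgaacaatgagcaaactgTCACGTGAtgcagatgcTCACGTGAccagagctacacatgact
Atp6v0d1: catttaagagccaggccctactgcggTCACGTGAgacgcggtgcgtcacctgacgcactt
Atp6v0e: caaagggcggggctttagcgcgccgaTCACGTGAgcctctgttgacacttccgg
Atp6v1a: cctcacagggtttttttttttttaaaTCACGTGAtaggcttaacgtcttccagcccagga
Atg3: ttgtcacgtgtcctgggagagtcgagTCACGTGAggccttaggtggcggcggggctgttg

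Cathepsins were the members that rose most. Of the 10 in both tables, 9 were higher in CPCCs, *Ctsb* was not called and 0 were lower, with a median log2 fold change of 2.30. *Ctsd*, the main aspartic protease of lysosomes (chromosome 7, 142375916 to 142387871), had 209.6, 198 and 159 CPM in mESCs against 2411, 1484 and 992 CPM in CPCCs. Every CPCC library lay above every mESC library, with S04 the highest. Its mean rose from 189 ± 26.7 CPM to 1629 ± 721 CPM (SD, n = 3 each), a change of 3.11 on the log2 scale (SE 0.31, adjusted p = 4.68e-05). *Ctso*, a cysteine protease (chromosome 3, 81932601 to 81956726), had 0.463, 0.588 and 0.585 CPM in mESCs, about the floor, and 18.5, 25.7 and 14.6 CPM in CPCCs. Its log2 fold change of 5.12 was the highest among the members (SE 0.42, adjusted p = 1.53e-05), and it rests on few mESC counts. *Ctsh*, an aminopeptidase (chromosome 9, 90054267 to 90076096), had 1.39, 1.91 and 2.34 CPM in mESCs against 18.2, 20.3 and 20.6 CPM in CPCCs, where the 3 libraries differed little (3.37 on the log2 scale, SE 0.33, adjusted p = 3.82e-05).

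*Ctsc*, the dipeptidyl peptidase that activates serine proteases of immune granules, had 38.9, 31.5 and 53.1 CPM in mESCs against 177, 280.2 and 194 CPM in CPCCs, 2.40 on the log2 scale (SE 0.26, adjusted p = 6.83e-05). *Ctsz*, a carboxypeptidase, had 35.8, 39.1 and 34.8 CPM in mESCs against 179.6, 186 and 141 CPM in CPCCs, 2.21 on the log2 scale (SE 0.18, adjusted p = 1.51e-05). In neither did S04 stand above the other CPCC libraries. *Ctsw*, known from cytotoxic lymphocytes, had 1.08, 0.883 and 0.878 CPM in mESCs against 2.39, 10.2 and 3.78 CPM in CPCCs, with S05 the highest. It rose by 2.501 on the log2 scale (SE 0.68, adjusted p = 0.0105), and without S05 it was 1.69 and was not called (adjusted p = 0.062002). *Ctsw* overlaps *Fibp* on the opposite strand, and its counts were low.

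The remaining rises were smaller. *Ctsf* had 23.8, 20.005 and 7.75 CPM in mESCs against 70.7, 55.5 and 30.5 CPM in CPCCs (1.61 on the log2 scale, SE 0.43, adjusted p = 0.00996), and the lowest CPCC library lay only just above the highest mESC library. *Ctsa*, the carboxypeptidase that protects lysosomal neuraminidase and beta-galactosidase, had 92.1, 91.6 and 86.4 CPM in mESCs against 163, 158 and 123 CPM in CPCCs, 0.72 on the log2 scale (SE 0.17, adjusted p = 0.00518). It overlaps *Neurl2* and *Pltp* on the opposite strand. *Ctsl*, a broadly expressed endopeptidase, had 203, 186 and 165 CPM in mESCs against 564, 279 and 238 CPM in CPCCs, 0.97 on the log2 scale (SE 0.30, adjusted p = 0.0206). The groups of *Ctsl* did not overlap, but S04 was well above S05 and S06, and the call was lost without S01, S02 or S03 (adjusted p = 0.05001, 0.0628 and 0.0803). *Ctsb*, another broadly expressed endopeptidase, had 645, 637 and 606 CPM in mESCs against 1078, 697 and 508 CPM in CPCCs (0.27 on the log2 scale, SE 0.25, adjusted p = 0.3597), and its groups overlapped.

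The order of the cathepsins changed with these shifts. On the scale of CPM per kb of exon, *Ctsb* was the highest cathepsin in mESCs at 104 and *Ctsd* the next at 80.4, whereas in CPCCs *Ctsd* stood at 693, *Ctsb* at 126 and *Ctsz* at 117. *Ctsd* made up 31.4%, 30.5% and 27.3% of the summed cathepsin CPM per kb in mESCs and 66.9%, 61.1% and 58.8% in CPCCs. The share of *Ctsb* was 37.5%, 38.1% and 40.4% in mESCs and 11.6%, 11.2% and 11.7% in CPCCs. Within the CPCCs both shares varied less than the levels did. Taken as a pair with *Ctsl*, *Ctsb* accounted for 78.6% ± 1.24 (SD, n = 3) in mESCs and 69.9% ± 2.82 (SD, n = 3) in CPCCs. The groups did not overlap, and the exact two-sided permutation test gave p = 0.10, the smallest that 3 libraries against 3 allow (0.15 after Benjamini-Hochberg adjustment over the 6 paralog pairs tested).

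Of the cathepsins in 1 table only, *Ctss* stood out. *Ctss*, a cysteine protease of antigen-presenting cells (chromosome 3, 95526786 to 95556406), had 38.9, 7.15 and 3.78 CPM in S04, S05 and S06, and is missing from the mESC table. Against a floor of 3 counts per mESC library it was at least 37.1-fold higher in CPCCs, and at least 12.2-fold higher without S04. Its order across S04, S05 and S06 was that of the summed macrophage markers; the part of macrophages in its level was not tested. *Ctsk*, the collagenase of osteoclasts, lies next to it (chromosome 3, 95499210 to 95509388, 17397 bases away) and had 0.795, 1.33 and 0.458 CPM in CPCCs. Its mean was 1.93-fold above the mESC floor of 0.448 CPM, and 1.40-fold without S05, while S06 lay about at that floor. *Ctsg*, a protease of neutrophil granules, is listed for mESCs with 0, 1.32 and 0.293 CPM, close to the floor.

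**Figure D2:**
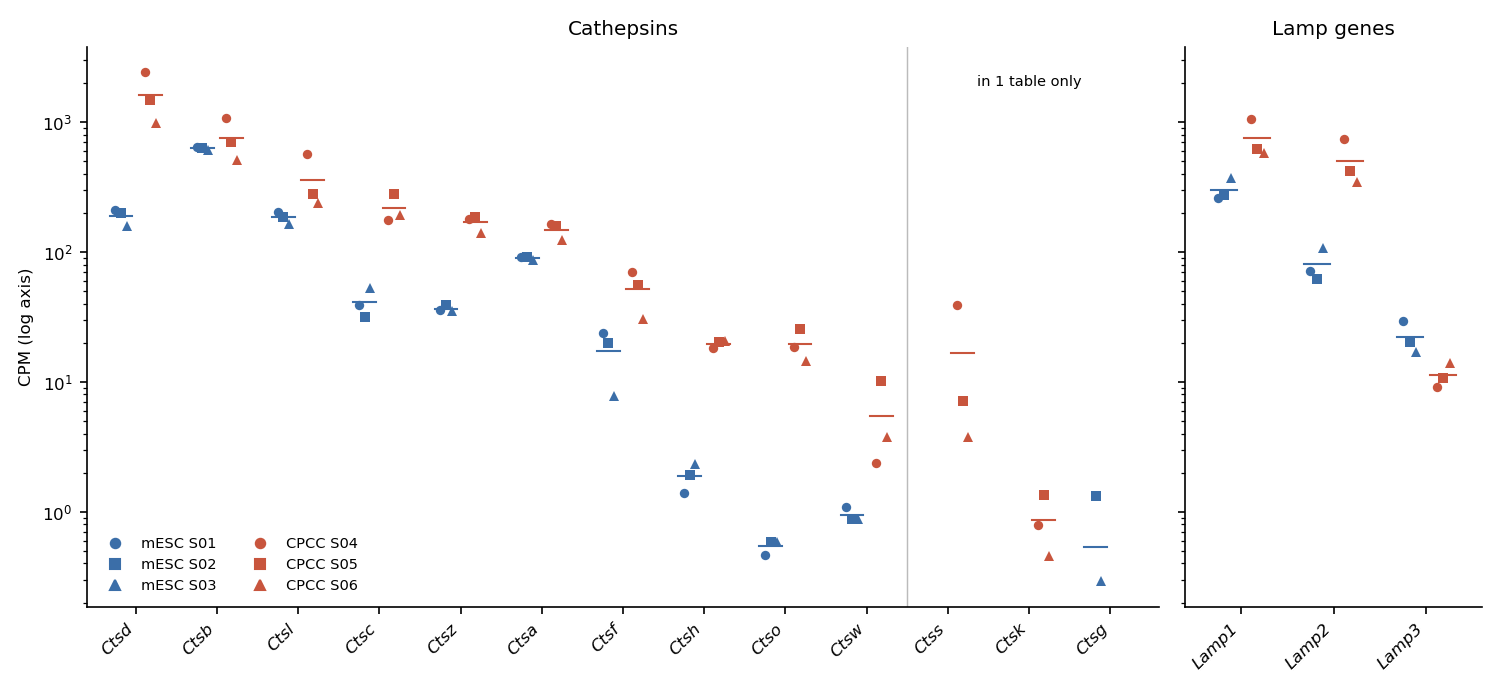
CPM of each cathepsin and *Lamp* gene (vertical log axis) in each library, mESC in blue and CPCC in red, with the group mean as a line; values of 0 are not drawn. *Ctsd* lies at 992 CPM or more in CPCCs and at 209.6 CPM or less in mESCs, the groups of *Ctsb* overlap, and *Lamp3* lies lower in the CPCC libraries.

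The *Lamp* genes encode glycoproteins of the lysosomal membrane, and they did not move together. *Lamp2* (chromosome X, 38401357 to 38456461), which also takes part in chaperone-mediated autophagy, had 71.5, 61.9 and 107 CPM in mESCs against 739, 423 and 344 CPM in CPCCs. All CPCC libraries were above all mESC libraries, and the mean rose from 80.3 ± 23.9 CPM to 502 ± 209 CPM (SD, n = 3 each; log2 fold change 2.64, SE 0.33, adjusted p = 1.46e-04). *Lamp1* (chromosome 8, 13159161 to 13175339), the most abundant of the family per kb in both cell types, had 262, 272 and 373 CPM in mESCs against 1049, 621 and 579 CPM in CPCCs, 1.31 on the log2 scale (SE 0.26, adjusted p = 0.00191). *Lamp3* (chromosome 16, 19653381 to 19706366), known from mature dendritic cells, went the other way, with 29.2, 20.2 and 16.8 CPM in mESCs against 9.15, 10.7 and 13.9 CPM in CPCCs, without overlap. It fell by 0.97 on the log2 scale (SE 0.30, adjusted p = 0.0184), and this call was lost without S01 or S05 (adjusted p = 0.0915 and 0.0572). *Lamp1* made up 93.1% ± 0.771 (SD, n = 3) in mESCs and 84.4% ± 1.17 (SD, n = 3) in CPCCs of the *Lamp1* and *Lamp2* CPM per kb, with no overlap between the groups (exact permutation p = 0.10).

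The sectors of the vacuolar proton pump differed. Of the V0 subunits other than the uncertain row *Atp6v0c-ps2*, 7 of 7 in both tables rose, with a median log2 fold change of 1.12. Of the 9 V1 subunits tested, 1 rose, 1 fell and 7 were not called, with a median of 0.13. The summed V0 level, with the uncertain row included, was 534, 523 and 458 CPM in mESCs against 1165, 1065 and 844 CPM in CPCCs, and the summed V1 level was 1503, 1438 and 1549 CPM in mESCs against 1887, 1295 and 1131 CPM in CPCCs.

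Among the V0 genes, *Atp6v0a1* (chromosome 11, 101009452 to 101063718), an isoform of the large a subunit through which protons pass, had 13.6, 9.27 and 7.61 CPM in mESCs against 39.3, 47.7 and 36.8 CPM in CPCCs. This was the steepest rise among the V0 genes with an *Atp6v* symbol, 2.02 on the log2 scale (SE 0.27, adjusted p = 2.28e-04), and the groups were far apart. *Atp6v0a2*, the a isoform known from the Golgi and endosomes, had 36.9, 42.8 and 38.9 CPM in mESCs against 91.8, 90.1 and 76.2 CPM in CPCCs (1.12 on the log2 scale, SE 0.17, adjusted p = 4.91e-04). *Atp6v0a1* made up 20.8% ± 5.81 (SD, n = 3) in mESCs and 32.9% ± 2.34 (SD, n = 3) in CPCCs of the CPM per kb of this pair, and the groups did not overlap (exact permutation p = 0.10).

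The small e subunits rose as well. *Atp6v0e2* had 34.6, 42.1 and 34.1 CPM in mESCs against 57.95, 149 and 114 CPM in CPCCs (1.53 on the log2 scale, SE 0.32, adjusted p = 0.00264), with S04 the lowest CPCC library. *Atp6v0e* had 110.3, 116 and 86.1 CPM in mESCs against 326, 256 and 181 CPM in CPCCs (1.29 on the log2 scale, SE 0.24, adjusted p = 0.00132), with S04 the highest. The share of *Atp6v0e* in this pair did not separate the cell types (exact permutation p = 1.0). The proton-binding ring subunits *Atp6v0c* and *Atp6v0b* and the d subunit *Atp6v0d1* rose by 0.74, 0.71 and 0.86 on the log2 scale (adjusted p = 0.0197, 0.00852 and 0.00215). *Atp6v0c* shares its locus with the *Atp6v0c-ps2* row, and its call was lost without S03 (adjusted p = 0.0768). *Atp6v0a4*, the a isoform of kidney, is listed for CPCCs only, with 1.69, 0.485 and 0.231 CPM. S04 alone was well above the mESC floor of 0.448 CPM, and without S04 the mean was 0.358 CPM, under that floor, so no fold is given.

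In V1, *Atp6v1h* (chromosome 1, 5083086 to 5162550), the regulatory H subunit, was the 1 gene that rose, from 37.7, 33.4 and 33.2 CPM to 101, 65.8 and 73.002 CPM (1.200 on the log2 scale, SE 0.21, adjusted p = 9.76e-04). *Atp6v1b2*, the widely expressed B subunit, had 93.8, 113 and 125 CPM in mESCs against 75.6, 78.8 and 70.9 CPM in CPCCs and fell by 0.56 (SE 0.17, adjusted p = 0.0184). The call on *Atp6v1b2* was lost without S02, S03 or S06 (adjusted p = 0.0651, 0.06202 and 0.0529). *Atp6v1a*, the catalytic subunit, had 628, 564 and 682 CPM in mESCs against 826, 455 and 394 CPM in CPCCs, with S04 above and S05 and S06 below all mESC libraries (log2 fold change -0.16, SE 0.26, adjusted p = 0.613). *Atp6v1c1*, a stalk subunit, had 145, 138 and 134 CPM in mESCs against 129, 75.5 and 72.9 CPM in CPCCs (-0.59 on the log2 scale, SE 0.23, adjusted p = 0.0526). *Atp6v1f*, *Atp6v1d*, *Atp6v1e1*, *Atp6v1g1* and *Atp6v1g2* had log2 fold changes of -0.36, 0.13, 0.39, 0.44 and 1.70 and were not called. *Atp6v1c2*, an isoform of the C subunit (chromosome 12, 17284721 to 17324731), is listed for mESCs only, with 6.33, 5.59 and 1.32 CPM. By its mESC mean against the floor of 3 counts it was at least 13.2-fold lower in CPCCs, and 10.3-fold without S01. *Atp6v1c2* overlaps *Pdia6* on the opposite strand.

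The V1 calls changed without S04. Without S04, 4 of the 9 V1 genes were lower in CPCCs and 2 higher, while V0 kept 7 higher and 0 lower. *Atp6v1a*, *Atp6v1c1* and *Atp6v1f* were then called lower, with log2 fold changes of -0.54, -0.89 and -0.40 (adjusted p = 0.00415, 2.56e-04 and 0.0247), and *Atp6v1g2* was called higher at 2.08 (adjusted p = 0.0109). *Atp6v1g2* was also called higher without S02 (adjusted p = 0.0349), and *Atp6v1e1* and *Atp6v1g1* were called higher without S06 (adjusted p = 0.0293 and 0.0426). The ratio of the summed V0 CPM to the summed V1 CPM, without the uncertain row, was 0.354, 0.363 and 0.286 in mESCs and 0.611, 0.821 and 0.745 in CPCCs, with means of 0.334 ± 0.0423 and 0.726 ± 0.106 (SD, n = 3 each). S04 had the lowest ratio of the CPCC libraries, and the groups did not overlap.

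**Figure D3:**
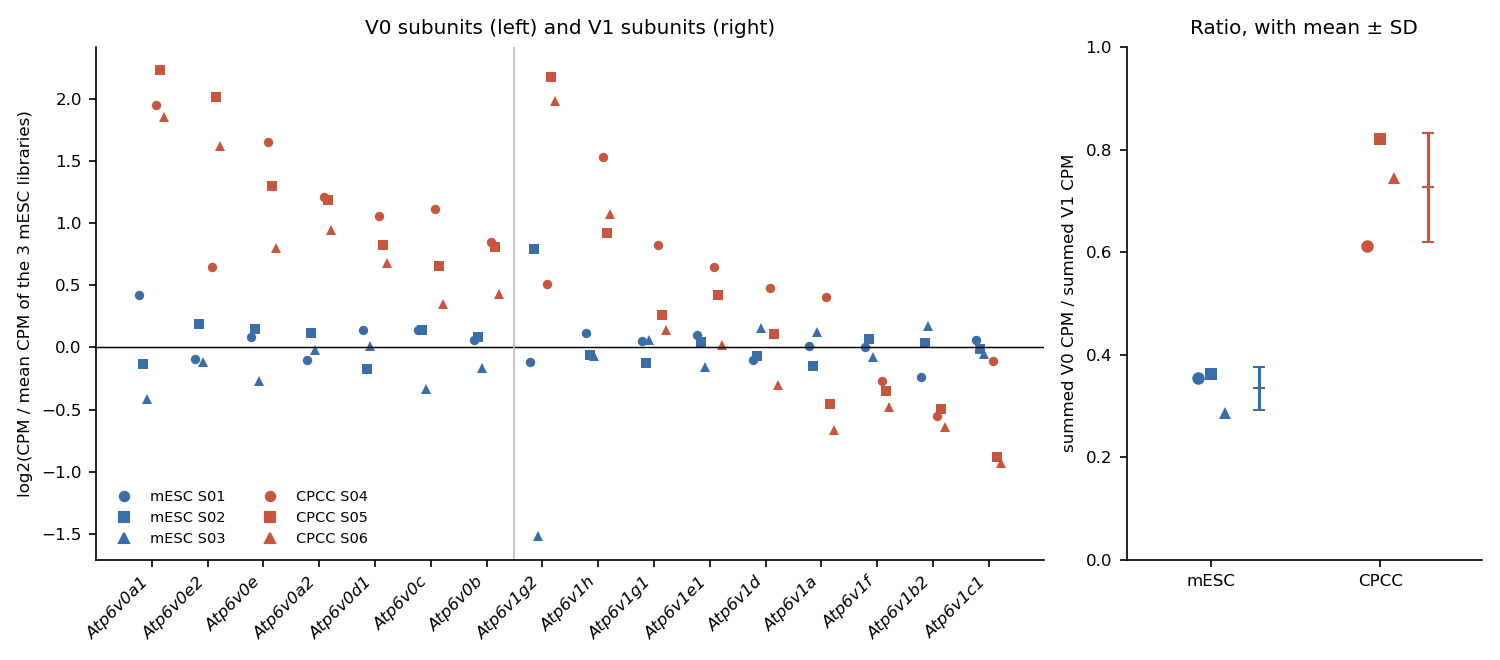
Left, log2 of the CPM of each pump subunit over its mean in the 3 mESC libraries, for each library, with V0 genes left of the grey line and V1 genes right of it. Right, summed V0 CPM over summed V1 CPM per library, with the mean and SD (n = 3) as a bar; the CPCC libraries lie at 0.611 or more and the mESC libraries at 0.363 or less.

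Of the accessory subunits, *Atp6ap1* (chromosome X, 74297097 to 74304722), which serves pump assembly, rose from 78.01, 82.2 and 77.1 CPM to 366, 309 and 238 CPM, 1.94 on the log2 scale (SE 0.19, adjusted p = 4.10e-05). *Atp6ap2*, also known as the prorenin receptor, had 152, 150.5 and 259 CPM in mESCs against 314, 161 and 145 CPM in CPCCs and was not called (0.14, SE 0.33, adjusted p = 0.722). S03 stood above S01 and S02 in *Atp6ap2*, and S04 above S05 and S06, so that the groups overlapped.

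Of the 18 *Atg* genes, 4 were higher, the uncertain *Atg4a* row among them, 5 were lower and 9 were not called. These are 22.2% and 27.8%, beside 31.7% and 29.7% of all genes tested, with a median log2 fold change of 0.21. The 3 initiation genes all fell. *Atg14* (chromosome 14, 47540893 to 47568435), the subunit that directs the class III lipid kinase to autophagy, had 56.1, 50.6 and 50.6 CPM in mESCs against 16.6, 14.4 and 13.5 CPM in CPCCs. The CPCC libraries were close together and far below the mESC libraries, and the fall was 1.82 on the log2 scale (SE 0.20, adjusted p = 6.75e-05). *Atg13* (chromosome 2, 91674612 to 91710593), which links the ULK kinases to their targets, had 66.4, 86.9 and 66.7 CPM in mESCs against 28.1, 32.98 and 28.4 CPM in CPCCs and fell by 1.30 (SE 0.19, adjusted p = 3.88e-04). *Atg101* (chromosome 15, 101284301 to 101290935), its partner, had 132, 139.7 and 90.97 CPM in mESCs against 54.6, 55.2 and 55.7 CPM in CPCCs and fell by 1.13 (SE 0.20, adjusted p = 0.00105). For none of the 3 did leaving out 1 library end the call.

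Genes of membrane supply went the other way or were not called. *Atg9a* (chromosome 1, 75180861 to 75192011), a lipid scramblase on the vesicles that seed the autophagosome, rose from 11.4, 17.1 and 10.8 CPM to 42.4, 48.02 and 39.5 CPM (1.72 on the log2 scale, SE 0.24, adjusted p = 3.20e-04). *Atg9b* (chromosome 5, 24384181 to 24392144), its paralog, rose from 3.53, 5.57 and 4.48 CPM to 11.8, 10.3 and 10.3 CPM (1.24, SE 0.33, adjusted p = 0.0102); it overlaps *Nos3* on the opposite strand. The lipid transfer genes *Atg2a* and *Atg2b* had log2 fold changes of -0.31 and 0.54 and were not called, although *Atg2b* was called higher without S06 (adjusted p = 0.03499).

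The conjugation genes, which attach LC3 and GABARAP to lipid, mostly were not called. *Atg16l1*, part of the complex that places LC3 on the membrane, had 115, 113 and 82.9 CPM in mESCs against 64.5, 81.97 and 66.1 CPM in CPCCs, without overlap. It fell by 0.55 on the log2 scale (SE 0.19, adjusted p = 0.03403), and this call was lost without S01, S02 or S06 (adjusted p = 0.126, 0.121 and 0.0874). The activating enzyme *Atg7*, the transfer enzymes *Atg3* and *Atg10*, and *Atg5*, *Atg12* and *Atg16l2* had log2 fold changes between -0.36 for *Atg16l2* and 0.79 for *Atg10*. In *Atg12*, *Atg10* and *Atg7* all CPCC libraries were above all mESC libraries, and without S06 *Atg12* was called higher (adjusted p = 0.0242). *Atg10* had 20.5, 8.97 and 8.94 CPM in CPCCs against 8.19, 6.91 and 7.17 CPM in mESCs, so its difference lay mostly in S04, and without S04 its log2 fold change was 0.28.

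The Atg4 proteases prime LC3 and release it from membranes, and they did not share a direction. *Atg4d* (chromosome 9, 21265285 to 21274838) had 37.1, 38.3 and 31.2 CPM in mESCs against 10.5, 14.4 and 17.7 CPM in CPCCs and fell by 1.33 on the log2 scale (SE 0.25, adjusted p = 0.00165). *Atg4c* (chromosome 4, 99193934 to 99259788) had 4.79, 5.88 and 9.21 CPM in mESCs against 11.03, 11.8 and 15.2 CPM in CPCCs and rose by 0.93 (SE 0.35, adjusted p = 0.0411). The call on *Atg4c* was lost without S01, S02, S05 or S06 (adjusted p = 0.132, 0.114, 0.07601 and 0.121). *Atg4b*, the most active of the family on LC3, had 31.8, 26.9 and 21.9 CPM in mESCs against 19.4, 23.3 and 16.7 CPM in CPCCs and was not called (-0.44, SE 0.24, adjusted p = 0.138). The row named *Atg4a* rose from 3.71, 5.59 and 3.36 CPM to 23.6, 25.95 and 16.5 CPM (2.38, SE 0.33, adjusted p = 2.76e-04), but these are counts at the locus of *Atg4a-ps*, which also overlaps *Syt6* on the opposite strand.

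Of the proteins that these steps place on the autophagosome, *Gabarap* (chromosome 11, 69991370 to 69994950) had 103, 95.9 and 88.2 CPM in mESCs against 359, 406 and 282 CPM in CPCCs. Its mean rose from 95.7 ± 7.42 CPM to 349 ± 62.7 CPM (SD, n = 3 each), a change of 1.87 on the log2 scale (SE 0.18, adjusted p = 4.02e-05), and no CPCC library was near the mESC range. *Map1lc3a* (chromosome 2, 155276364 to 155278074) rose from 46.03, 46.5 and 34.4 CPM to 76.7, 101 and 79.4 CPM (1.02, SE 0.20, adjusted p = 0.00202). *Map1lc3b* (chromosome 8, 121590468 to 121598048), the LC3 gene usually followed in autophagy assays, had 302, 325 and 309 CPM in mESCs against 337, 258 and 223 CPM in CPCCs (-0.19, SE 0.18, adjusted p = 0.379). Its groups overlapped because S04 lay above the mESC libraries, and without S04 it was called lower (-0.36, adjusted p = 0.0346). *Sqstm1* (chromosome 11, 50200152 to 50210821), which encodes the cargo receptor p62, had 357, 367 and 363 CPM in mESCs against 775, 518 and 415 CPM in CPCCs. Its groups did not overlap and it rose by 0.65 (SE 0.22, adjusted p = 0.0288), but S04 was far above S06, and the call was lost without S01, S02 or S03 (adjusted p = 0.0929, 0.0808 and 0.0784).

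The makeup of this family shifted with it. *Gabarap* made up 41.4%, 38.7% and 40.5% of the CPM per kb of *Gabarap*, *Map1lc3a* and *Map1lc3b* in mESCs and 63.9%, 64.7% and 61.2% in CPCCs. *Map1lc3a* made up 46.1% ± 4.105 (SD, n = 3) in mESCs and 66.6% ± 6.55 (SD, n = 3) in CPCCs of the CPM per kb of *Map1lc3a* and *Map1lc3b*, without overlap (exact permutation p = 0.10). In mESCs the pair stood near parity, and in each CPCC library *Map1lc3a* was the higher one per kb.

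**Figure D4:**
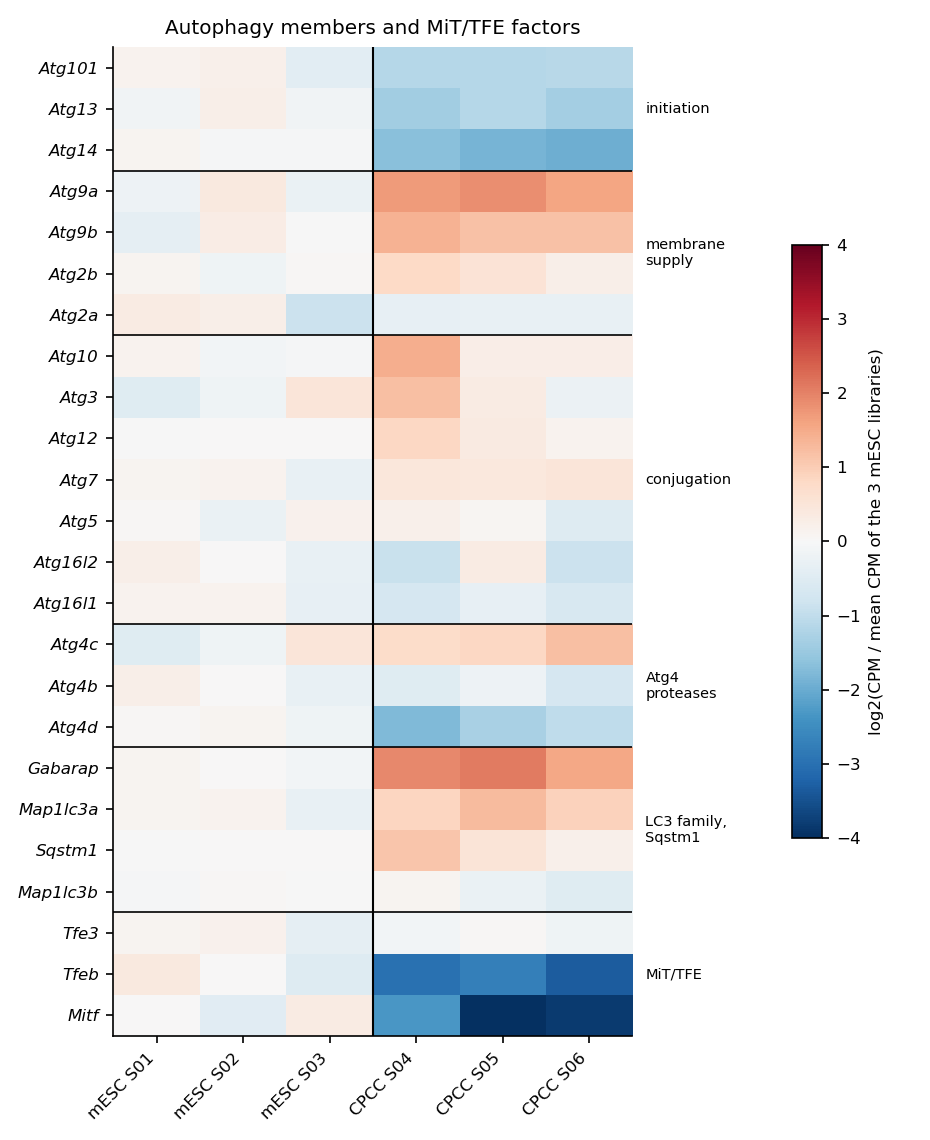
Log2 of the CPM over the mean of the 3 mESC libraries (colour scale, blue lower and red higher) for the autophagy members and the MiT/TFE factors (rows, by step) in each library (columns); the uncertain *Atg4a* row is left out. The initiation genes, *Atg4d*, *Tfeb* and *Mitf* are blue and *Atg9a*, *Atg9b*, *Gabarap* and *Map1lc3a* are red in all 3 CPCC libraries.

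Of the MiT/TFE factors, which drive lysosomal and autophagy genes, none of the 3 was called higher and *Tfeb* and *Mitf* fell. *Tfeb* (chromosome 17, 47737037 to 47792417) had 44.8, 34.4 and 23.8 CPM in mESCs against 4.37, 5.21 and 3.44 CPM in CPCCs. Its mean fell from 34.4 ± 10.5 CPM to 4.34 ± 0.889 CPM (SD, n = 3 each), a change of -2.98 on the log2 scale (SE 0.32, adjusted p = 6.54e-05). *Mitf* (chromosome 6, 97807058 to 98021359), best known from melanocytes and osteoclasts, had 71.2, 51.9 and 88.05 CPM in mESCs against 14.1, 4.12 and 4.93 CPM in CPCCs. All CPCC libraries lay far below the mESC libraries, with S04 the highest of them, and the difference was -3.17 on the log2 scale (SE 0.46, adjusted p = 3.43e-04). *Tfe3* (chromosome X, 7762661 to 7775203) had 69.7, 73.3 and 50.3 CPM in mESCs against 59.3, 66.9 and 56.96 CPM in CPCCs, with overlap, and was not called (-0.08, SE 0.20, adjusted p = 0.751). Without S02 its log2 fold change was 0.03. *Tfe3* made up 27.9%, 35.4% and 22.8% of the CPM per kb of the 3 factors in mESCs and 67.8%, 82.01% and 81.4% in CPCCs.

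Of the cell types in which *Mitf* is known to act, melanocyte markers were nearly absent: of 5, the tables list *Pmel* alone, with 6.67, 7.94 and 5.997 CPM in mESCs against 1.905, 0.486 and 0.691 CPM in CPCCs. Of 5 osteoclast markers, *Acp5*, which encodes a phosphatase also found in macrophages, was the 1 tested and fell. It was at 74.6, 64.6 and 70.3 CPM in mESCs against 4.37, 5.34 and 2.41 CPM in CPCCs. *Calcr* is listed for CPCCs only, with 2.39, 1.698 and 3.21 CPM, and *Dcstamp* for mESCs only, with 1.24, 0.147 and 1.46 CPM. *Oscar* was at 0.618, 0.147 and 0.878 CPM in mESCs against 1.69, 0.728 and 0.229 CPM in CPCCs, with overlap, and *Ocstamp* is in neither table. The activity of Tfeb, Tfe3 and Mitf depends on their phosphorylation and entry into the nucleus, which RNA levels do not measure.

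Genes of the same pathways outside the symbol rule were counted from lists. Among all genes tested, 31.7% were higher and 29.7% were lower. Of 36 lysosomal hydrolases and their activators tested, 25 were higher (69.4%), 4 lower (11.1%) and 7 not called, with a median log2 fold change of 1.12. *Arsb*, the arylsulfatase of dermatan sulfate, rose from 1.699, 0.883 and 1.61 CPM to 38.1, 27.9 and 20.5 CPM (4.36, SE 0.39, adjusted p = 2.39e-05). *Lipa*, the acid lipase that frees cholesterol from its esters, rose from 4.48, 5.15 and 10.7 CPM to 143, 124 and 77.4 CPM (4.08, SE 0.38, adjusted p = 2.94e-05). Against this direction, *Dnase2a*, the acid DNase, fell from 13.7, 17.2 and 16.97 CPM to 3.68, 3.27 and 6.19 CPM (-1.86 on the log2 scale, SE 0.34, adjusted p = 0.00145), and *Gm2a*, the activator of ganglioside breakdown, from 92.996, 85.2 and 73.3 CPM to 39.2, 30.4 and 30.4 CPM (-1.33, SE 0.19, adjusted p = 3.39e-04). *Naglu* is listed for CPCCs only.

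Of 24 lysosomal membrane and transporter genes, 16 were higher (66.7%), 1 lower (4.17%) and 7 not called (median 0.98). *Sort1*, a receptor that carries hydrolases and other proteins to lysosomes, rose from 9.27, 3.38 and 7.02 CPM to 107, 125 and 113 CPM (4.13, SE 0.33, adjusted p = 1.26e-05). *Tcirg1*, which encodes another a isoform of the V0 sector of the pump but does not carry an *Atp6v* symbol, rose from 5.72, 5.74 and 6.44 CPM to 52.98, 52.1 and 28.1 CPM (2.89, SE 0.30, adjusted p = 5.89e-05). *Tmem192*, a membrane protein of late endosomes and lysosomes, was the 1 that fell, from 53.3, 71.9 and 65.2 CPM to 23.1, 18.8 and 25.8 CPM (-1.49, SE 0.21, adjusted p = 2.98e-04). The summed level of the hydrolases was 1559.97, 1573 and 1506 CPM in mESCs against 3700.2, 3089.7 and 2404 CPM in CPCCs, and that of the membrane genes 1405, 1399 and 1419 CPM in mESCs against 3015, 2471 and 1984 CPM in CPCCs, each without overlap.

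Genes that sort hydrolases or sense nutrients mostly were not called. Of 14 genes of mannose 6-phosphate sorting, 1 was higher and 4 were lower (median 0.06). These are 7.14% and 28.6%, beside 31.7% and 29.7% of all genes tested. *Gga2*, an adaptor for the mannose 6-phosphate receptors, fell by 1.41 on the log2 scale and *Nagpa*, the enzyme that uncovers the sugar tag, by 1.32 (adjusted p = 5.83e-05 and 0.00218), while *Ap1s1*, an AP-1 adaptor subunit, rose by 1.06 (adjusted p = 0.00264). Of 23 genes of nutrient sensing at the lysosome, 3 were higher and 4 lower (median -0.04). *Rragc* and *Rragd* encode alternative subunits of the Rag GTPases that recruit mTORC1. *Rragc* had 48.4, 48.7 and 55.1 CPM in mESCs against 158, 152 and 117 CPM in CPCCs and rose by 1.49 (SE 0.18, adjusted p = 1.33e-04). *Rragd* had 63.5, 50.3 and 69.9 CPM in mESCs against 14.6, 38.8 and 39.8 CPM in CPCCs and fell by 0.98 (SE 0.35, adjusted p = 0.0352), with S04 the lowest. The call on *Rragd* was lost without S01 or S03 (adjusted p = 0.08904 and 0.111) and with library totals in place of TMM factors (adjusted p = 0.0514). *Prkaa1*, a catalytic subunit of AMPK, rose by 1.31 and *Lamtor5*, a subunit of the Ragulator complex, fell by 0.84 (adjusted p = 0.00181 and 0.001402).

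Of 18 initiation and nucleation genes without an *Atg* symbol, 6 were higher, 6 lower and 6 not called. This is 33.3% in each direction, near the 31.7% higher and 29.7% lower of all genes tested. The ULK kinases, which work with Atg13 and Atg101, went opposite ways. *Ulk1* had 1212, 1299.6 and 1001 CPM in mESCs against 154, 183 and 152 CPM in CPCCs and fell by 2.84 on the log2 scale (SE 0.17, adjusted p = 3.45e-06). *Ulk2* had 5.72, 4.56 and 12.7 CPM in mESCs against 89.4, 64.1 and 68.2 CPM in CPCCs and rose by 3.26 (SE 0.37, adjusted p = 9.43e-05). Neither gene's groups overlapped. *Pik3r4*, which sits with Atg14 in the class III lipid kinase, fell by 1.11, and *Wipi1*, which binds the lipid that this kinase makes, rose by 2.702 (adjusted p = 2.77e-04 and 4.21e-05).

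Of 15 LC3 relatives and autophagy receptors outside the rule, 3 were higher and 5 lower (median -0.33). These are 20% and 33.3%, beside 31.7% and 29.7% of all genes tested. The relatives of *Gabarap* moved apart: *Gabarapl1* rose from 16.7, 19.4 and 17.3 CPM to 52.1, 41.4 and 31.6 CPM (1.23, SE 0.24, adjusted p = 0.001901), and *Gabarapl2* fell from 278, 264 and 377 CPM to 61.03, 36.4 and 38.6 CPM (-2.75, SE 0.25, adjusted p = 2.78e-05). *Calcoco1*, a receptor for autophagy of the endoplasmic reticulum, rose by 1.15, and *Optn*, a receptor in mitophagy, fell by 1.83 (adjusted p = 0.0125 and 3.51e-04). The call on *Calcoco1* was lost without S01 (adjusted p = 0.0511) and without S03 and S04 together (adjusted p = 0.0531). Of 16 genes for the fusion of autophagosomes with lysosomes, 6 were higher (37.5%) and 2 lower (12.5%), with a median of 0.19. The SNAREs *Stx17* and *Vamp8* rose by 2.08 and 1.72 (adjusted p = 7.09e-05 and 4.85e-04), and the tether subunits *Vps11* and *Vps39* had log2 fold changes of -0.59 and -0.52 (adjusted p = 0.0182 and 0.0484). Neither call was stable: that on *Vps11* was lost without S01, S02, S05 or S06 (adjusted p = 0.0546 to 0.0666), and that on *Vps39* without any library but S05 (adjusted p = 0.0688 to 0.163) and under upper-quartile factors, library totals or no filter (adjusted p = 0.0573, 0.069996 and 0.0533). Of 5 cystatins, which inhibit cathepsins, 2 are in both tables and 0 of these were called by edgeR; *Cst3* alone had an unadjusted p under 0.05 (0.0458).

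The CPCC libraries were not alike for these genes. S04 was the highest of the 3 in 32 of the 57 tested members (56.1%) and in 38.8% of all genes tested. It also had the most macrophage marker RNA. Its summed cardiac progenitor and muscle markers were the highest too, at 166 CPM against 48.3 CPM in S05 and 66.6 CPM in S06. *Ctsd*, *Ctsl*, *Ctsb*, *Lamp1*, *Lamp2* and *Ctss* were highest in S04, whereas *Ctsc*, *Ctsz*, *Ctso*, *Ctsw* and *Gabarap* were highest in S05, and *Ctsh* and *Lamp3* in S06. Without S04 the counts were 28 higher and 13 lower, and the median log2 fold change of all members was 0.41. *Ctsd* then had a log2 fold change of 2.72, *Lamp2* of 2.27 and *Lamp1* of 1.00, and 9 of 10 cathepsins and 7 V0 genes remained higher. S06 held the least macrophage marker RNA of the CPCCs, at 46.1 CPM, and had 992 CPM of *Ctsd*. Of 6 visceral endoderm markers, *Lrp2*, *Cubn* and *Amn* are listed, and *Ttr*, *Afp* and *Apoa1* are in neither table. Their summed level, mostly *Lrp2*, was 70.2, 153 and 267 CPM in S04, S05 and S06, so that S06 was the highest. In S01, S02 and S03 it was 7.72, 14.1 and 9.07 CPM. The part of macrophages or of other cell types in the other rises was not tested.

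**Figure D5:**
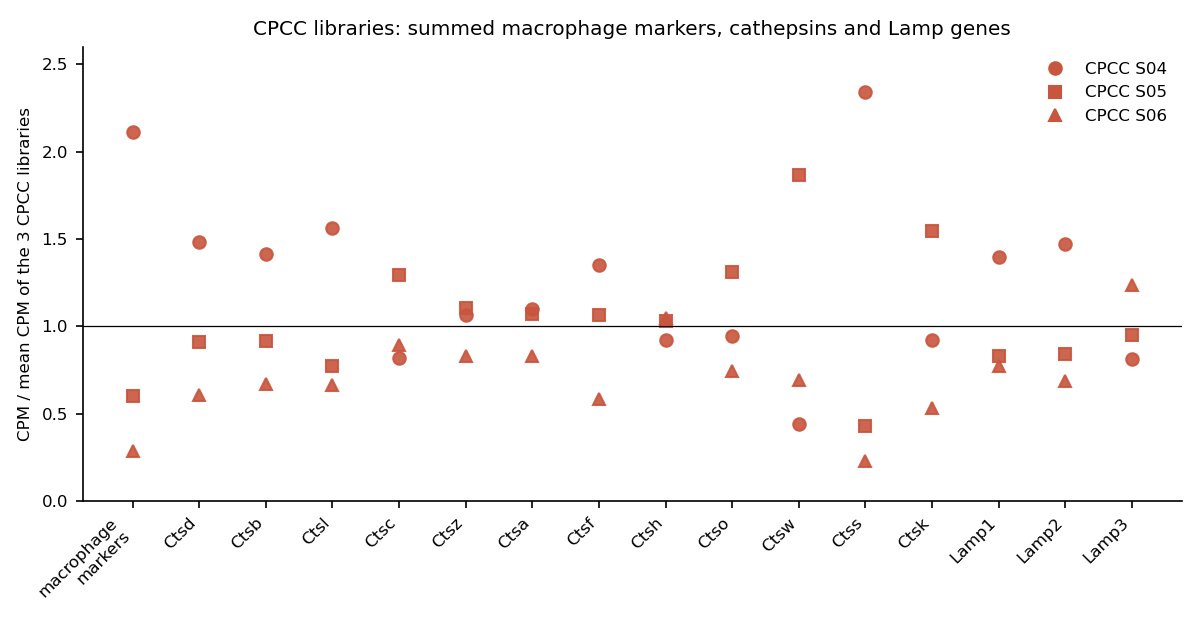
Summed CPM of the 10 macrophage markers, and CPM of each cathepsin and *Lamp* gene listed for CPCCs, in each CPCC library divided by the mean of the 3 (vertical axis; circle S04, square S05, triangle S06). The markers and *Ctss* spread most, with S04 on top, while *Ctsz*, *Ctsa* and *Ctsh* lie close to 1 in every library.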

How the data were processed

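Bulk RNA-seq of 3 mESC and 3 CPCC libraries was used, made from polyA-selected RNA with a SMART-Seq kit. The authors deposited estimated counts of reads per gene, with gene positions, neither normalised nor divided by allele, with 1 table for each cell type; in each, the counts of a gene sum to at least 10. The submitters' processing notes name STAR 2.7 and mm10, and the counter is not given in the sources used here. The tables' names and the labels gave each column its cell type (0 columns without one), but no replicate number.

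Estimated counts were rounded. Of the 13001 genes in both tables, filterByExpr removed 530, and 12471 were tested by edgeR 4.0.16 (R 4.3.3; quasi-likelihood test, TMM, adjusted p under 0.05 by Benjamini-Hochberg). The standard error is the log2 fold change over the square root of its F statistic. The edgeR p-values set the difference between the cell types against the spread between these libraries, which is estimated partly over all genes. Clones were not paired. Exons for CPM per kb and loci are from GENCODE vM21, promoters from RefSeq. Paralog shares were compared by exact permutation, 6 of 10 chosen pairs being testable. The fits were checked on simulated counts for 13001 genes: edgeR recovered 117 of 200 changed genes, 95 of the 100 with changes of 4-fold or more, with 7 unchanged genes called, and DESeq2 1.42.0 recovered 117 and called 15.

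The members and lists were chosen with earlier results of these data known. Named in full are the *Lamp*, LC3 and MiT/TFE genes, from each other group the 4 called genes that rose most and the 4 that fell most, members in 1 table only, and from each wider list the 2 that rose and 2 that fell most; others are given to account for every member. Alternatives were DESeq2, upper-quartile factors, library totals, no filter, at least 10 counts in every library, genes of either table with missing genes at 0 or 3 counts, a 2-fold threshold and leaving out each library; leaving out S03 with S04, and the *Atg4a* and *Atp6v0c-ps2* rows, were added after seeing the data. Of the annotated protein-coding genes whose symbols match, 13 are in neither table. Allele-specific and single-cell data were not analysed here, and 1 gene of a list is not reported here.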

Additional observations from a re-analysis of the deposited data

How the results depend on the processing

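No paired analysis was possible because the columns of the tables carry no replicate numbers. Over all settings, members higher numbered 20 to 30 and lower 6 to 13, and no called member was called with the opposite sign. Without 1 library, 28 of the 36 calls were kept in all 6 fits, the member median ran from 0.41 (without S04) to 0.83 (without S06), the cathepsin median from 1.91 to 2.40, the *Atg* median from -0.0254 (without S04) to 0.30, and *Tfe3* from -0.23 to 0.030 (without S02). Leaving out S03 with S04 gave a member median of 0.38. With at least 10 counts in every library, which drops low genes, the medians were 1.67 for cathepsins and 1.19 for V0. Genes lower and also changed 2-fold numbered 2430 of all genes and 2 hydrolases, 0 of nutrient sensing, 2 of initiation outside the *Atg* symbols, 3 LC3 relatives and receptors and 0 of fusion, and higher in fusion 3. Mannose 6-phosphate sorting had 2 higher with the 10-count filter and without S03 and S04, and 1 to 2 without 1 library (2 without S03). Fusion had 1 lower under upper-quartile factors, library totals, no filter, the 10-count filter, missing genes at 0 counts, and without S03 and S04; without 1 library it had 0 (without S01) to 1, nutrient sensing 1 (without S01) to 6, and initiation 3 (without S01) to 7. The causes were not tested, beyond fewer libraries or genes. With a floor of 1 count per library the bound for *Ctss* is 111-fold.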

Other observations

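Further gene groups around the lysosome were read from lists chosen after the data were seen, so their counts are descriptions (the quasi-likelihood test of edgeR, Benjamini-Hochberg adjusted; among all genes tested 31.7% were higher and 29.7% lower). Of 14 genes that position lysosomes or make the endolysosomal lipid PI(3,5)P2, 5 were higher and 3 lower in CPCCs. *Fig4*, a phosphatase needed for making this lipid, had 367, 422 and 382 CPM in mESCs against 60.9, 66.6 and 63.8 CPM in CPCCs (-2.61 on the log2 scale, SE 0.15, adjusted p = 3.14e-06). *Arl8a*, a small GTPase that couples lysosomes to kinesin, went the other way, with 18.7, 13.8 and 14.9 CPM in mESCs against 109, 63.4 and 53.2 CPM in CPCCs (2.25 on the log2 scale, SE 0.30, adjusted p = 2.16e-04). *Plekhm2*, which links Arl8 to kinesin, rose (1.75 on the log2 scale, SE 0.30, adjusted p = 9.63e-04), and *Kxd1*, a subunit of the BORC complex that recruits Arl8, fell (-1.42 on the log2 scale, SE 0.25, adjusted p = 0.00101).

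Of 7 lysosomal ion channel and exchanger genes, 3 were higher and 2 lower. *Clcn5*, a chloride-proton exchanger of endosomes, had 2.16, 0.883 and 1.02 CPM in mESCs against 54.1, 35.05 and 27.3 CPM in CPCCs (4.83 on the log2 scale, SE 0.43, adjusted p = 2.36e-05), while its relatives *Clcn3* and *Clcn6* fell by 1.06 and 1.18 on the log2 scale (adjusted p = 0.00605 and 0.0194), the call on *Clcn6* being lost without S02 or S05 (adjusted p = 0.0839 and 0.0548). *Tpcn1*, a cation channel, rose (1.59 on the log2 scale, SE 0.25, adjusted p = 5.12e-04). Of 11 genes known to regulate the MiT/TFE factors, 10 were tested, and 6 were higher and 3 lower. *Ppp3ca* and *Ppp3r1*, the calcineurin subunits that dephosphorylate Tfeb, rose by 1.91 and 1.27 (adjusted p = 0.00178 and 8.21e-04). *Ywhag* and *Ywhae*, 14-3-3 proteins of the family that holds phosphorylated Tfeb in the cytosol, fell by 0.72 and 0.67 (adjusted p = 0.0109 and 0.002796), the call on *Ywhag* being lost without S01 (adjusted p = 0.0519).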
